A study of Mus musculus with 24 samples.

Results

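The imprinted growth genes described here are Grb10, H19, Igf2, Igf2r, Cdkn1c, Peg3, Mest, Plagl1, Meg3 and Dlk1. All 10 were listed by name as imprinted genes with known roles in growth, and all 10 were among the 14427 genes of the deposited count table, in which each gene was above 1 CPM (counts per 1000000 counted reads) in at least 3 of 24 libraries. The list was drawn up because Grb10 was nearly silent in the female p53 Y217C line, and the question asked was whether other imprinted genes switch too. Grb10 was thus chosen by its measured level, which is given as a description with no test. The other 9 genes were listed for their function and not for their level, although results of these libraries were known at the time, and Dlk1 and Igf2 entered the table through the lines in which they were high.

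Expression was measured by RNA-seq in mouse cortical astrocytes of 4 genotypes, p53 Y217C, p53 Y202C, p53 R172H and p53 KO, each as a female and a male line, which makes 8 lines of 3 replicates. The cells came from postnatal day 1 pups that carried a floxed and a deleted Trp53 allele, with at least 3 pups pooled per sex, and every line received a Cre and puromycin resistance lentivirus that removed the floxed allele. The mutant lines had first received a retrovirus that expressed the mutant mouse p53 together with eGFP, and were sorted for eGFP, whereas the p53 KO lines received Cre alone and no retrovirus. The labels name 1 primary culture of each sex, at passages 10 to 15, and the methods describe replicates as separate thaws and platings. The p-values thus rest on the spread among platings of 1 line, and sex and culture cannot be told apart, nor can a mutation and the history of its 1 transduced line.

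Imprinted genes are expressed mainly from the allele of 1 parent, according to DNA methylation that was laid down in the egg or the sperm and is kept at imprinting control regions after fertilization. Several lie in clusters in which 1 control region governs protein-coding genes and long noncoding RNAs in opposite ways. Many act on fetal growth through insulin-like growth factor signaling, with paternally expressed genes such as Igf2 favoring growth and maternally expressed genes such as Igf2r, Cdkn1c and Grb10 limiting it. The read counts carry no allele, so every level here is the sum over both alleles.

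Promoter sequences of 3 of these genes are shown because they carry the contrast in CpG content beside the expression values. Each window runs from 250 bases before to 50 bases after a transcript start in RefSeq on GRCm38.p6, written 5′ to 3′ on the strand of the gene, with every CG dinucleotide in capitals. The dinucleotide reads the same on either strand. The start windows of Grb10 differed most in CpG content.
Grb10 first start (chr11:12037371-12037670, minus strand): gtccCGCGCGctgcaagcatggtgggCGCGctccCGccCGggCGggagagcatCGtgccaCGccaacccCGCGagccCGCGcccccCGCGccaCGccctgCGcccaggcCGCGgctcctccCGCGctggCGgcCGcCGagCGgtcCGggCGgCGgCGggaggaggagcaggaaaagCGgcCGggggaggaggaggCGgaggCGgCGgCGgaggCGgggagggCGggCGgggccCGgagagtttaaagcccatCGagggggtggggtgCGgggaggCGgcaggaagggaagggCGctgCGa
Grb10 second start (chr11:12027922-12028221, minus strand): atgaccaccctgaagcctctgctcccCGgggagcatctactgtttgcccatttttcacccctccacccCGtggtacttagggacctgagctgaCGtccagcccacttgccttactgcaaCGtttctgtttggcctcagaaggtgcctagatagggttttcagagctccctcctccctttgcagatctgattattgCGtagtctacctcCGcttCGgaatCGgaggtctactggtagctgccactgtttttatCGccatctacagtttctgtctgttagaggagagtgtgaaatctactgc
Igf2r start (chr17:12769657-12769956, minus strand): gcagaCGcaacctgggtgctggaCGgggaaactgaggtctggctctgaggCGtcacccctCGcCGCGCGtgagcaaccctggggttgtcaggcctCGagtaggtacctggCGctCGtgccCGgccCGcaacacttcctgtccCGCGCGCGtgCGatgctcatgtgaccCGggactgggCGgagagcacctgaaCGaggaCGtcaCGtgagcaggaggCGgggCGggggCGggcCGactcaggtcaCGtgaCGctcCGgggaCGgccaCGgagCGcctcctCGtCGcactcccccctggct
Dlk1 start (chr12:109452573-109452872, plus strand): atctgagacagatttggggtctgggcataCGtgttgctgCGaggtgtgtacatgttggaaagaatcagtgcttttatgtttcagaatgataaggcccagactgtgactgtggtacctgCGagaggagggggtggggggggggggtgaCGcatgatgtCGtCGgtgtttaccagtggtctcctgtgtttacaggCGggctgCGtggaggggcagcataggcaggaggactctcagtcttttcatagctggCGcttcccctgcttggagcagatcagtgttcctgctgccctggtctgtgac

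The first Grb10 window held 45 CG dinucleotides, a number reached by 1.93% of 32851 promoter windows, whose median was 7. The second Grb10 window and the Dlk1 window held 9 each, a number reached by 45.8% of windows. The Igf2r window held 34, which 7.73% of windows reached. The window tables gave 15 windows for 8 of the 10 genes, and the others ranged from 1 CG dinucleotide in the second Meg3 window to 26 in that of Plagl1. Grb10, whose level spanned the widest range, and Igf2r, whose level spanned the narrowest, thus both had a start window rich in CpG.

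The libraries held 52787288 to 136503809 counted reads (median 80684345). Values below are CPM scaled with edgeR's TMM factors and are given as mean ± SD of 3 replicates. The correlation of libraries within a line was between 0.991 and 0.997, and that between lines was between 0.835 and 0.980. Trp53 reads, which include those of the transgene, were 48.9 CPM in female and 50.9 CPM in male p53 KO and between 593 CPM in female p53 Y202C and 3709 CPM in female p53 Y217C in the mutant lines. The astrocyte markers were uneven. Gfap, the astrocyte intermediate filament, was under 0.3 CPM in 7 of 8 lines and was at 6.93 CPM in male p53 Y217C, and Aqp4, the astrocyte water channel, had no read in female p53 KO and male p53 R172H. Gja1 and Sox9, which other cell types also express, were at 79.96 CPM or more in every line, the glutamate transporter gene Slc1a3 reached 281 CPM in female p53 R172H, and Aldh1l1 reached 56.6 CPM in male p53 Y217C. Of 10 astrocyte markers 9 were in the table, and their summed level ran from 200.5 CPM in male p53 Y202C to 639.9 CPM in female p53 R172H. Fibroblast and meningeal markers, 7 of 8 of them in the table, summed to between 9708 CPM in male p53 Y202C and 44350 CPM in female p53 R172H, mostly from the collagens Col1a1 and Col1a2. In bulk libraries, fewer cells of a type and less RNA per cell cannot be told apart.

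Grb10 encodes an adaptor protein that binds the activated insulin and insulin-like growth factor 1 receptors and limits their signaling. The gene lies at chr11:11930508-12038683 on the minus strand of GRCm38, and is expressed from the maternal allele in most tissues and from the paternal allele in neurons. The 3 female p53 KO libraries had 630.5, 623.5 and 623.2 CPM, and the 3 male p53 KO libraries 520.5, 547 and 560.4 CPM. The female p53 Y217C libraries had 0.211, 0.254 and 0.222 CPM, the lowest of them resting on 15 reads. The male p53 Y217C libraries had 25.2, 26.3 and 24.2 CPM.

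The remaining mutant lines fell between these extremes. Grb10 was at 167.7, 158 and 152.9 CPM in female p53 R172H and at 314.2, 312.9 and 328.5 CPM in male p53 R172H. In p53 Y202C it was at 81.7, 72.5 and 81.6 CPM in the female line and at 49.3, 45.4 and 54.6 CPM in the male line. Ordered by mean CPM, the p53 KO lines came first (626 ± 4.10 in the female and 543 ± 20.3 in the male line), then p53 R172H (319 ± 8.65 in the male and 160 ± 7.51 in the female line), female p53 Y202C (78.6 ± 5.29), male p53 Y202C (49.8 ± 4.62), male p53 Y217C (25.3 ± 1.06) and female p53 Y217C (0.229 ± 0.0223), and no neighbors in this order overlapped. All 6 mutant lines were thus below the p53 KO line of their sex, and the female p53 Y217C line stood far below the rest.

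**Figure D1:**
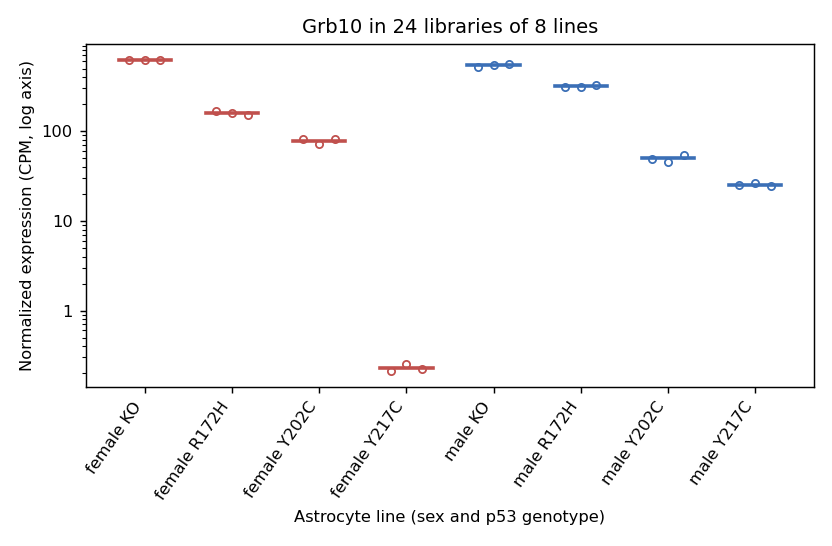
Grb10 in each of 24 libraries (open circles) and the mean of each line (bars) in normalized CPM on a log axis, with female lines in red and male lines in blue. The 8 lines do not overlap, and the female p53 Y217C libraries lie near 0.2 CPM while those of every other line lie above 24 CPM.

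On the log2 scale, the fitted Grb10 difference from p53 KO was -1.97 for female p53 R172H, -2.99 for female p53 Y202C and -11.41 for female p53 Y217C. The male lines had differences of -4.42 with p53 Y217C, -3.45 with p53 Y202C and -0.77 with p53 R172H. From the highest to the lowest line the means differed 2732-fold, and 0.118% of all genes had a range that large. These values chose the gene and are not evidence of anything beyond it.

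The other 9 genes were tested in every comparison with p53 KO by edgeR's quasi-likelihood test, with Benjamini-Hochberg adjustment over 14427 genes and a threshold of 0.05. Of 54 pairs of a gene and a comparison, 16 were higher in the mutant line, 31 were lower and 7 did not pass. In the female p53 Y217C line, where Grb10 was nearly silent, Cdkn1c and Igf2r rose, H19, Peg3, Plagl1, Meg3 and Dlk1 fell, and Igf2 and Mest did not pass. Against these 2 rises and 5 falls of 9, the test called 28.0% of all genes higher and 28.7% lower in that line. The median absolute log2 difference was 1.20 over the 9 genes and 0.28 over all genes.

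The counts in the other lines went in both directions. In female p53 R172H, 6 of the 9 rose and 3 fell, where 34.4% of all genes were called higher and 35.3% lower. In female p53 Y202C, 2 rose and 7 fell, against 34.3% and 34.3% of all genes. In male p53 R172H, 4 rose, 3 fell and 2 did not pass, against 20.2% and 20.5%, and in male p53 Y202C, 1 rose, 6 fell and 2 did not pass, against 37.6% and 35.4%. In male p53 Y217C, 1 rose, 7 fell and 1 did not pass, where 34.9% of all genes were called higher and 35.6% lower. The comparisons within a sex share their p53 KO libraries. The median absolute log2 difference of the 9 genes was 2.21 in male p53 Y217C and, in females, 1.72 with p53 Y202C and 1.42 with p53 R172H, where that of all genes was 0.40, 0.38 and 0.39. It was 1.5 in male p53 Y202C, against 0.46, and smallest in male p53 R172H, at 0.50 against 0.19.

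**Figure D2:**
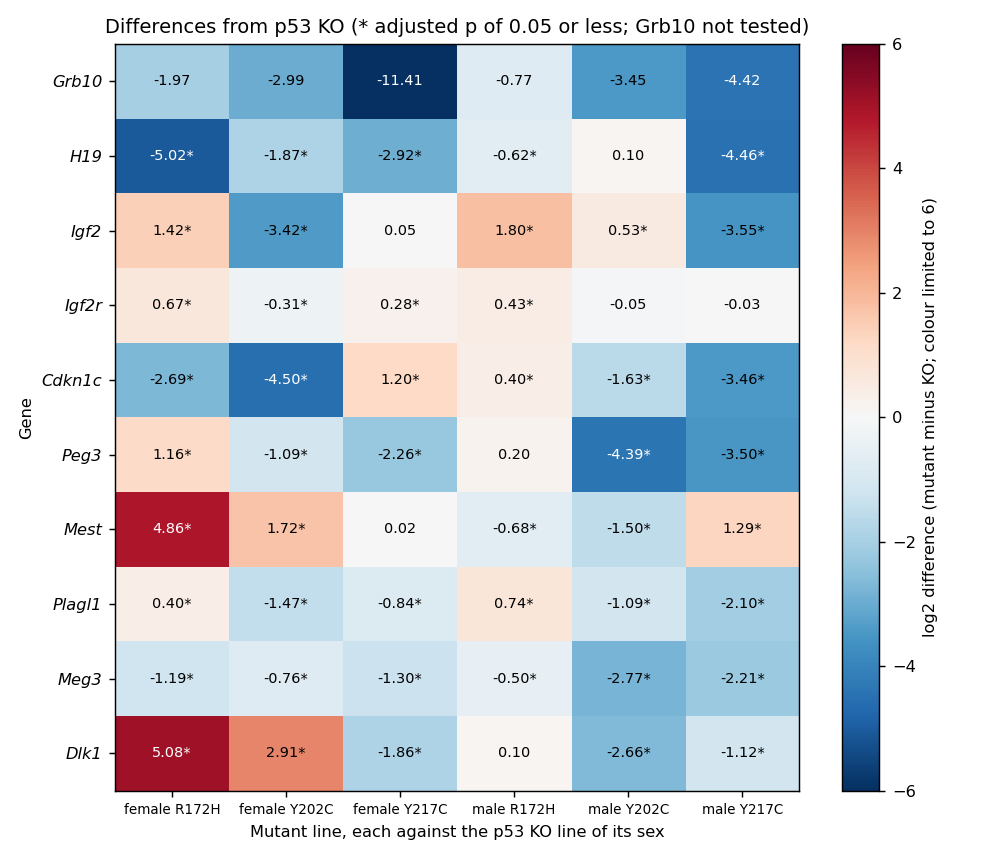
Fitted log2 differences of the 10 imprinted growth genes between each mutant line and the p53 KO line of its sex, in red where higher and in blue where lower, with colors limited to 6 in either direction. An asterisk marks an adjusted p of 0.05 or less, and Grb10 was not tested. Meg3 is lower in all 6 columns, whereas Dlk1, Mest and Igf2 are higher in some lines and lower in others.

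A gene was counted as switched when its mean was under 1 CPM in at least 1 line and at 10 CPM or more in another. Grb10, Igf2 and Dlk1 met this, which makes 2 of the 9 genes other than Grb10 (22.2%), against 2.87% of all genes. Igf2 and Dlk1 entered the table through the lines in which they were high. All genes include genes that reached 10 CPM in no line. The shares are thus a description and do not show that imprinted genes switch more often. Besides Grb10, Dlk1 was the member of the 10 under 1 CPM in female p53 Y217C, and it was already at 2.14 CPM in female p53 KO. Igf2 was under 1 CPM in male p53 Y217C and Dlk1 was also under 1 CPM in male p53 Y202C, so that the low lines of the 3 genes were not the same. With limits of 2 and 20 CPM, or 1 and 20 CPM, which were chosen after the data were seen, Igf2 and Dlk1 again met the count, 2 of the 9, against 2.20% and 1.56% of all genes. From its highest to its lowest line a gene changed 51.6-fold in the median over the 9 genes and 2.04-fold over all genes, but the range of Igf2r was 1.97-fold and 52.7% of all genes had a range as large.

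Igf2 encodes insulin-like growth factor 2, a fetal growth factor expressed from the paternal allele. It was at 19.7, 19.3 and 19.5 CPM in female p53 KO and at 19.2, 19.4 and 21.7 CPM in female p53 Y217C. The ranges of these lines overlapped and the log2 difference of 0.05 ± 0.15 (SE) did not pass (edgeR adjusted p = 0.813). In male p53 Y217C, Igf2 was at 0.537, 0.427 and 0.683 CPM, against 4.54, 7.64 and 7 CPM in male p53 KO. Every male p53 Y217C library was below every male p53 KO library, a log2 difference of -3.55 ± 0.22 (adjusted p = 5.92e-13 by edgeR's quasi-likelihood test).

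Igf2 was highest in p53 R172H. It was at 55.8, 53.6 and 47.1 CPM in the female line, 1.42 ± 0.15 above p53 KO on the log2 scale (edgeR adjusted p = 8.97e-09), and at 17.1, 27.6 and 22.7 CPM in the male line, 1.80 ± 0.16 above p53 KO (edgeR adjusted p = 2.42e-09). Female p53 Y202C fell to 1.47, 1.68 and 2.21 CPM, a log2 difference of -3.42 ± 0.18 (edgeR adjusted p = 8.33e-14). Male p53 Y202C, at 9.33 ± 0.471 CPM, was higher than male p53 KO by 0.53 (edgeR adjusted p = 0.00409).

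H19 encodes a maternally expressed noncoding RNA that shares enhancers and a control region with Igf2. It was at 460, 483.4 and 522.6 CPM in female p53 KO and at 44.6, 58.5 and 59 CPM in male p53 KO. The male culture was thus already lower, with no overlap (log2 difference -3.18 ± 0.13, edgeR adjusted p = 4.97e-15). H19 fell in 5 of 6 comparisons. The largest fall was in female p53 R172H, which had 14, 14.7 and 16.5 CPM (log2 difference -5.02 ± 0.15, edgeR adjusted p = 5.54e-19), and the next in male p53 Y217C, which had 2.78, 2.02 and 2.54 CPM (log2 difference -4.46 ± 0.16, edgeR adjusted p = 1.48e-17). Female p53 Y217C was at 74.5, 61.9 and 56.8 CPM, lower than p53 KO (log2 difference -2.92 ± 0.13, edgeR adjusted p = 9.20e-15), and male p53 Y202C, at 57.9 ± 4.47 CPM, did not pass (edgeR adjusted p = 0.489).

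Igf2 and H19 therefore did not move as a pair with opposite signs throughout. In p53 R172H of either sex Igf2 rose and H19 fell, whereas in male p53 Y217C and female p53 Y202C both fell. In the female p53 Y217C line H19 fell and the difference in Igf2 did not pass.

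Igf2r encodes the receptor that takes Igf2 up for degradation and is expressed from the maternal allele in most mouse tissues. Its level changed least of the 10 genes, from 229 ± 9.47 CPM in female p53 Y202C to 451 ± 15.9 CPM in female p53 R172H, and male p53 KO, male p53 Y217C, male p53 Y202C and female p53 KO overlapped their neighbors in the order of the levels. It was at 345.1, 339 and 348.3 CPM in female p53 Y217C and at 276.9, 293.3 and 281.8 CPM in female p53 KO. These libraries did not overlap, with a log2 difference of 0.28 ± 0.05 (edgeR adjusted p = 1.42e-04). In male p53 Y217C and male p53 Y202C the differences of -0.03 (edgeR adjusted p = 0.669) and -0.05 (edgeR adjusted p = 0.403) did not pass, although the latter passed without male p53 Y202C replicate 1 (edgeR adjusted p = 0.0496). Airn, the antisense noncoding RNA that overlaps Igf2r and is expressed from the paternal allele, rose in all 6 comparisons, by 0.47 in male p53 R172H to 1.42 in male p53 Y202C, where it was at 11.8 ± 1.88 CPM against 4.37 ± 0.174 CPM. The strand of counting is not given in the sources used here, so reads in the overlap of Igf2r and Airn may have been counted for either gene or left out.

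Cdkn1c encodes p57Kip2, a cyclin-dependent kinase inhibitor expressed from the maternal allele. It was at 260.2, 208.3 and 207.4 CPM in female p53 Y217C and at 87.2, 99.6 and 108.1 CPM in female p53 KO. It thus rose by 1.20 ± 0.12 on the log2 scale where Grb10 was nearly silent (edgeR adjusted p = 1.41e-08). In the male line with the same mutation it was at 6.39, 4.49 and 6.62 CPM against 54.3, 70.4 and 67.8 CPM in male p53 KO. That difference was -3.46 ± 0.14 (edgeR adjusted p = 2.19e-16), and the effect of p53 Y217C in males minus that in females was -4.66 ± 0.19 (edgeR adjusted p = 4.13e-16).

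Cdkn1c was lower than p53 KO in female p53 Y202C, at 4.37 ± 0.422 CPM (log2 difference -4.50, edgeR adjusted p = 1.30e-17), in female p53 R172H, at 15.2 ± 1.14 CPM (-2.69, edgeR adjusted p = 7.55e-15), and in male p53 Y202C, at 20.8 ± 1.62 CPM (-1.63, edgeR adjusted p = 4.15e-11). In male p53 R172H it was at 84.6 ± 12.2 CPM and higher by 0.40 (edgeR adjusted p = 0.0115). This last call was lost without male p53 KO replicate 1 (edgeR adjusted p = 0.0854) or without male p53 R172H replicate 2 (edgeR adjusted p = 0.0779).

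Kcnq1ot1, the paternally expressed noncoding RNA whose transcription silences Cdkn1c on the same chromosome, was at 34.1 ± 4.31 CPM in female p53 KO and at 6.50 ± 1.55 CPM in female p53 Y217C (log2 difference -2.40, edgeR adjusted p = 1.42e-06). The line with the most Cdkn1c thus had the least Kcnq1ot1. Male p53 Y217C had the most Kcnq1ot1, 40.2 ± 9.97 CPM, with little Cdkn1c, but the difference of 0.62 from p53 KO did not pass (edgeR adjusted p = 0.0675). Both p53 Y202C lines had less Kcnq1ot1 than p53 KO together with less Cdkn1c, by -1.10 in the female line (edgeR adjusted p = 0.00300) and -1.04 in the male line (edgeR adjusted p = 0.00435). Female p53 R172H, where Cdkn1c also fell, had 34.4 ± 9.79 CPM of Kcnq1ot1, and the difference of 0.01 did not pass (edgeR adjusted p = 0.968). The difference of 0.20 in male p53 R172H did not pass either (edgeR adjusted p = 0.622). Phlda2, a maternally expressed growth inhibitor of the same cluster, was at 1.03 ± 0.186 CPM in female p53 KO and had at most 2 reads in any female p53 Y202C library, at least 21.9-fold lower against a floor of 3 counts per library. Phlda2 was also lower in female p53 R172H, at 0.0386 ± 0.0432 CPM (log2 difference -4.71, edgeR adjusted p = 1.26e-08). The same held in male p53 Y217C, at 0.0256 ± 0.025 against 0.436 ± 0.108 CPM (-3.98, edgeR adjusted p = 4.41e-06). It was at 0.957 ± 0.104 CPM in female p53 Y217C, and the difference did not pass there, in male p53 R172H or in male p53 Y202C.

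**Figure D3:**
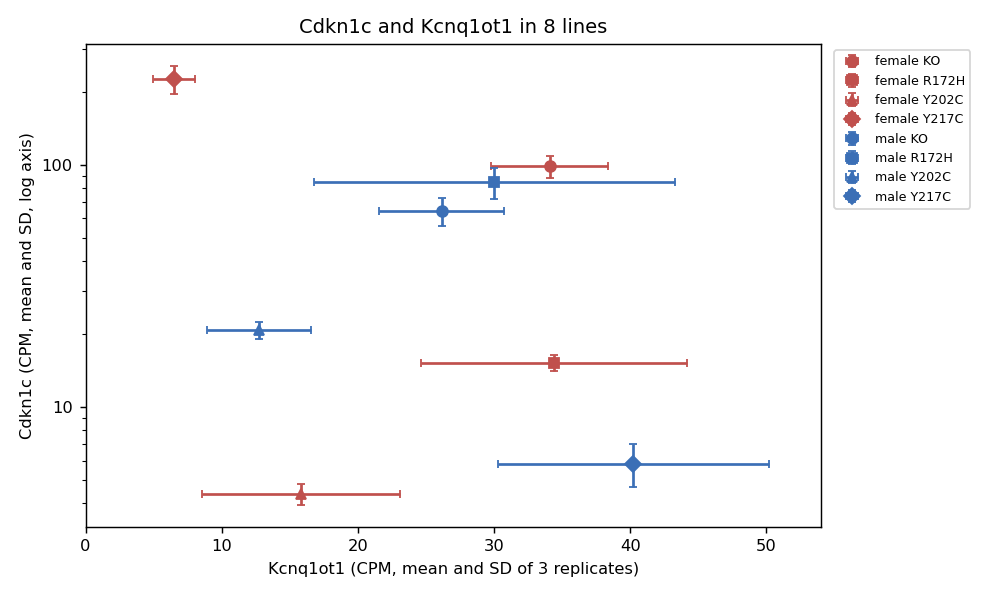
Cdkn1c (log axis) against Kcnq1ot1 in the 8 lines, as mean and SD of 3 replicates in normalized CPM, with female lines in red, male lines in blue and a symbol for each genotype. The female p53 Y217C line has the highest Cdkn1c, 225 CPM, and the lowest Kcnq1ot1, 6.50 CPM, whereas both are low in the p53 Y202C lines.

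Peg3 encodes a zinc finger protein expressed from the paternal allele. In female p53 Y217C it was at 51.8, 55.2 and 58 CPM, against 269.2, 261.7 and 258.5 CPM in female p53 KO. Every library of the mutant line was lower, by -2.26 ± 0.11 on the log2 scale (edgeR adjusted p = 2.38e-14). The falls in males were larger, to 12.8, 11.3 and 13.4 CPM in p53 Y217C (log2 difference -3.50 ± 0.12, edgeR adjusted p = 4.07e-18) and to 7.73, 5.28 and 7.03 CPM in p53 Y202C (-4.39 ± 0.12, edgeR adjusted p = 2.53e-19), from 145.3, 135.7 and 142.6 CPM in p53 KO. Female p53 R172H rose to 588 ± 12.1 CPM (log2 difference 1.16, edgeR adjusted p = 5.62e-10), and female p53 Y202C fell to 123 ± 22.6 CPM (-1.09, edgeR adjusted p = 2.12e-09). In male p53 R172H the difference of 0.20 did not pass (edgeR adjusted p = 0.132), but it passed with limma's voomWithQualityWeights (adjusted p = 0.00875) and when only the lines compared were fitted (edgeR adjusted p = 0.0289). Zim1, a maternally expressed zinc finger gene of the same cluster, moved with Peg3 in some lines and against it in others. It rose with Peg3 in female p53 R172H, to 4.35 ± 0.314 from 1.20 ± 0.339 CPM in p53 KO, and fell with it in both male p53 Y202C and male p53 Y217C, to 0.0451 ± 0.022 and 0.174 ± 0.0847 CPM. In the female p53 Y202C and p53 Y217C lines, where Peg3 fell, Zim1 rose, to 4.71 ± 0.989 and 1.82 ± 0.244 CPM (log2 differences 1.99 and 0.61, edgeR adjusted p = 7.00e-08 and 0.0307).

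Plagl1 encodes Zac1, a paternally expressed zinc finger transcription factor that regulates other imprinted genes. It rose in p53 R172H and fell in the other mutant lines. In male p53 Y217C it was at 8.68, 6.95 and 8.08 CPM, against 33, 33.9 and 34.7 CPM in male p53 KO (log2 difference -2.10 ± 0.13, edgeR adjusted p = 4.17e-13). The female p53 Y217C line had 26, 26.8 and 28.9 CPM, against 45.1, 50.4 and 50.5 CPM in female p53 KO (-0.84 ± 0.12, edgeR adjusted p = 2.25e-06). The falls in p53 Y202C were -1.47 in the female line and -1.09 in the male line, to 17.6 ± 3.25 and 15.97 ± 2.28 CPM (edgeR adjusted p = 2.23e-10 and 2.09e-08). The rise in male p53 R172H was 0.74 (edgeR adjusted p = 2.13e-05), and that in female p53 R172H, 0.40 (edgeR adjusted p = 0.00397), was lost without female p53 R172H replicate 1 (edgeR adjusted p = 0.0520).

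Mest encodes a paternally expressed protein of the hydrolase family and is a marker of growing mesenchymal tissue. In female p53 R172H it was at 192.5, 157.1 and 141.3 CPM, against 5.82, 5.85 and 5.26 CPM in female p53 KO. Every library was far above those of female p53 KO, by 4.86 ± 0.10 on the log2 scale (edgeR adjusted p = 7.62e-22). Female p53 Y217C had 5.51, 5.69 and 6.03 CPM and overlapped female p53 KO (log2 difference 0.02, edgeR adjusted p = 0.846). Mest also rose in female p53 Y202C, to 18.5 ± 1.16 CPM (1.72, edgeR adjusted p = 6.90e-14), and in male p53 Y217C, to 21.5 ± 0.365 CPM (1.29, edgeR adjusted p = 2.97e-12). It fell in male p53 R172H, to 5.51 ± 0.336 CPM (-0.68, edgeR adjusted p = 2.69e-06), and in male p53 Y202C, to 3.13 ± 0.252 CPM (edgeR adjusted p = 1.60e-12). Copg2, which overlaps Mest on the opposite strand, was between 23.6 and 38.5 CPM in the 8 lines and rose in all 6 comparisons with p53 KO, by 0.41 to 0.59 on the log2 scale, and reads of the overlap could not be told apart without the strand of counting.

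**Figure D4:**
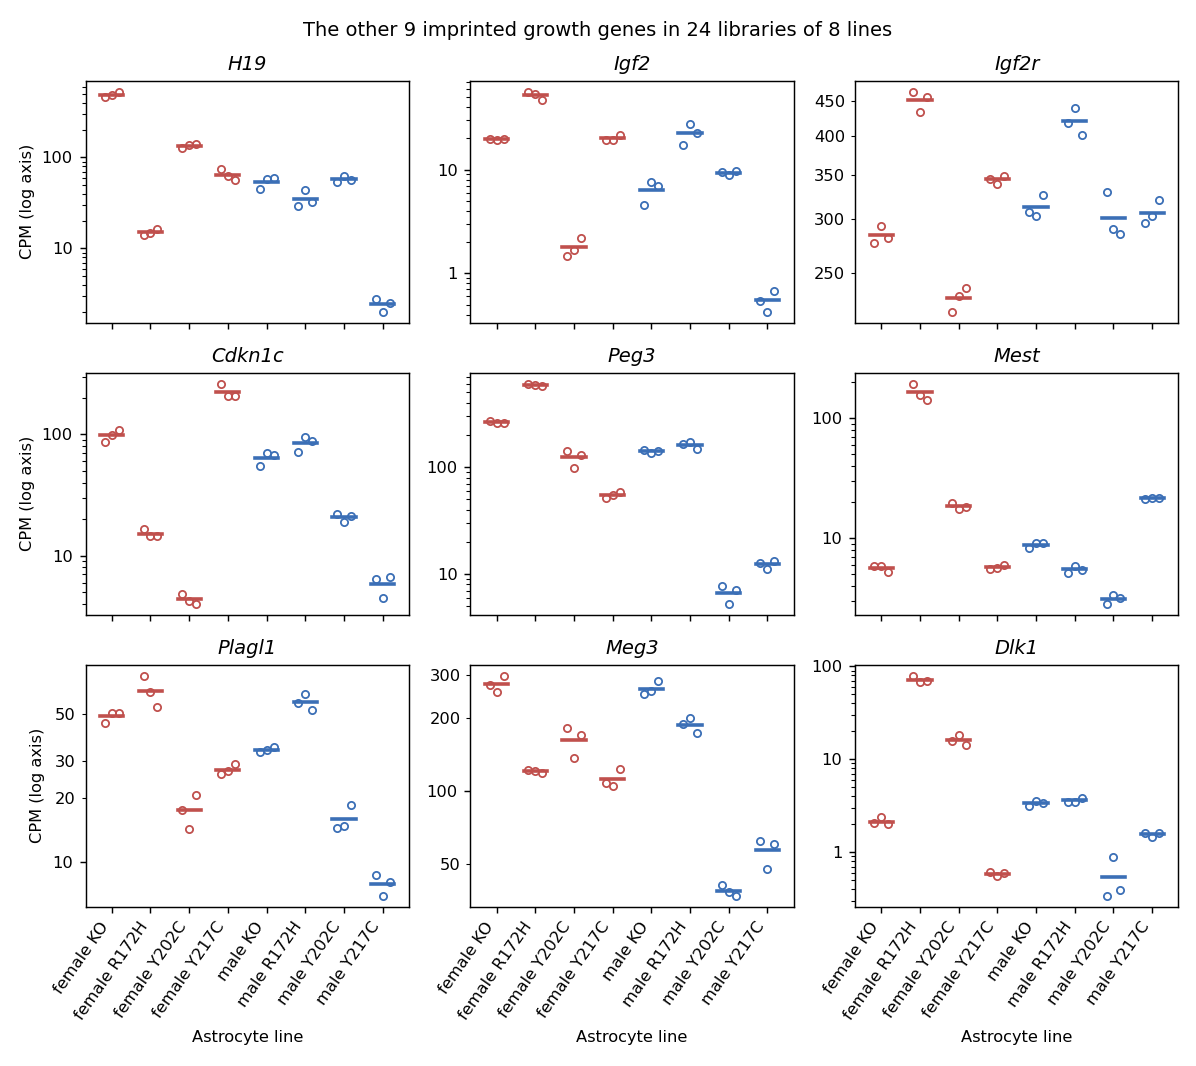
Normalized CPM on a log axis of the 9 genes other than Grb10 in each of 24 libraries (open circles) with line means (bars), female lines in red and male lines in blue. Igf2r stays between 229 and 451 CPM, whereas Mest, Dlk1 and Peg3 are highest in female p53 R172H and Igf2 and H19 are lowest in male p53 Y217C.

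Dlk1 encodes a paternally expressed transmembrane protein related to Notch ligands, which keeps precursor cells from differentiating, and Meg3 is the maternally expressed noncoding RNA of the same cluster. Dlk1 was at 78.6, 67.5 and 69.4 CPM in female p53 R172H and at 2.04, 2.38 and 1.99 CPM in female p53 KO, a log2 difference of 5.08 ± 0.15 (edgeR adjusted p = 1.09e-18). It was at 15.6, 18.3 and 14.3 CPM in female p53 Y202C (2.91 ± 0.15, edgeR adjusted p = 2.38e-14). In female p53 Y217C it was at 0.611, 0.559 and 0.591 CPM, with 40 reads or more in each library (-1.86 ± 0.20, edgeR adjusted p = 2.53e-08). The female lines thus held both the highest level of Dlk1 and nearly the lowest.

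In males, Dlk1 was at 3.11, 3.57 and 3.39 CPM in p53 KO and at 0.340, 0.894 and 0.397 CPM in p53 Y202C (log2 difference -2.66 ± 0.19, edgeR adjusted p = 6.86e-12). The p53 Y217C line had 1.55 ± 0.0885 CPM (-1.12, edgeR adjusted p = 1.20e-06), and the difference of 0.10 in p53 R172H did not pass (edgeR adjusted p = 0.625).

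Meg3 fell in all 6 comparisons with p53 KO. It was at 271.4, 255.9 and 297 CPM in female p53 KO and at 107.9, 104.9 and 122.6 CPM in female p53 Y217C (log2 difference -1.30 ± 0.10, edgeR adjusted p = 6.24e-11). In males it was at 249.5, 256.5 and 283 CPM in p53 KO, at 40.6, 38.3 and 36.9 CPM in p53 Y202C (-2.77 ± 0.10, edgeR adjusted p = 2.76e-17) and at 62, 47.7 and 60.4 CPM in p53 Y217C (-2.21 ± 0.10, edgeR adjusted p = 1.11e-15). Its smallest fall was -0.50 in male p53 R172H, to 187 ± 13.2 CPM (edgeR adjusted p = 1.84e-04), and the female p53 R172H and p53 Y202C lines differed by -1.19 and -0.76 (edgeR adjusted p = 8.12e-11 and 1.80e-07).

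The other genes of the cluster were examined beside this pair. Rian and Mirg, maternally expressed noncoding RNAs downstream of Meg3, also fell in all 6 comparisons, with log2 differences of Rian from -0.70 in male p53 R172H to -3.54 in male p53 Y202C and of Mirg of -0.76 and -3.91 in the same lines. In male p53 Y202C, Rian was at 10.8 ± 1.09 CPM against 126 ± 5.64 CPM in p53 KO (edgeR adjusted p = 3.74e-22). Dio3, the paternally expressed thyroid hormone deiodinase at the far end, rose with Dlk1 in female p53 R172H (1.18) and female p53 Y202C (2.90) and fell in male p53 Y202C (-1.19) and male p53 Y217C (-2.93). It fell also in male p53 R172H, where the Dlk1 difference did not pass (-0.47, edgeR adjusted p = 0.0339). Where Dlk1 fell in female p53 Y217C, the Dio3 difference of 0.21 did not pass (edgeR adjusted p = 0.336). Rtl1, the retrotransposon-derived gene between them, fell in 5 of 6 comparisons and was at most at 2.04 CPM in any line. In the female p53 R172H and p53 Y202C lines, therefore, Dlk1 and Dio3 rose while Meg3, Rian and Mirg fell, and in the male p53 Y202C and p53 Y217C lines all 5 fell.

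**Figure D5:**
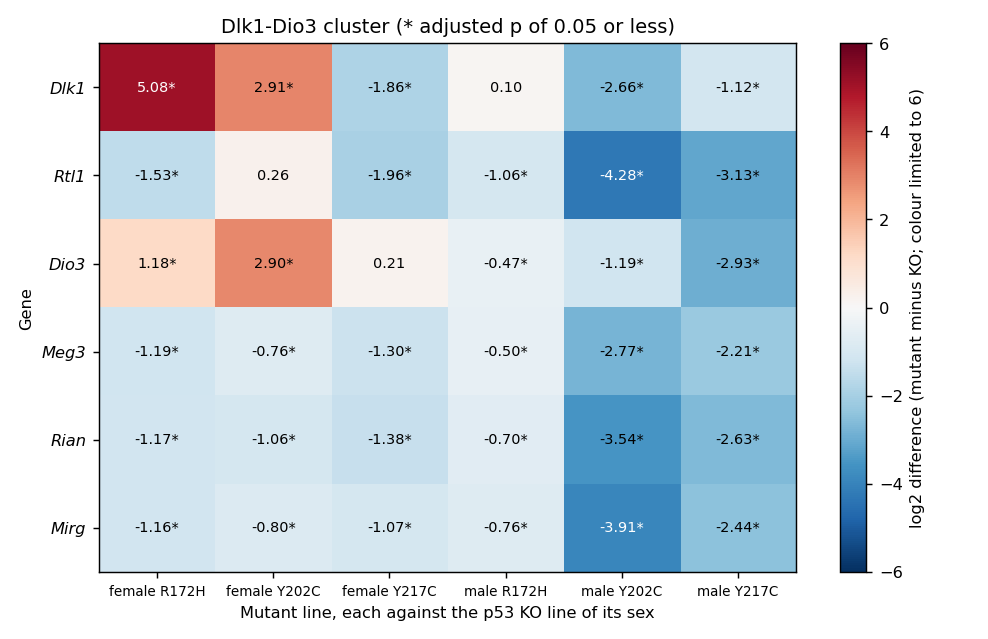
Fitted log2 differences from p53 KO of 6 genes of the Dlk1-Dio3 cluster in the 6 mutant lines, red where higher and blue where lower, with an asterisk for an adjusted p of 0.05 or less. The noncoding RNAs Meg3, Rian and Mirg are lower in every column, whereas Dlk1 and Dio3 are higher in female p53 R172H and female p53 Y202C.

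Markers of other cell types varied between the same lines. In female p53 R172H, where Mest, Dlk1, Igf2, Peg3 and Igf2r were highest, the fibroblast markers summed to 41760 to 48740 CPM, against 23890 to 25820 CPM in female p53 KO, and the astrocyte markers to 617.9 to 653 CPM against 345.7 to 372.8 CPM. The higher astrocyte sum came mostly from Slc1a3, at 281 CPM against 18.7 CPM. Sox9 was also higher, at 182.5 against 113.3 CPM, while Gja1 was lower, at 156.7 against 221.5 CPM. In that line 2 of 6 neuronal markers were in the table and summed to 114.8 to 124 CPM, against 10.8 to 11.7 CPM in female p53 KO. Male p53 Y202C, lowest in Peg3, Mest, Meg3 and Dlk1, also had the lowest fibroblast sum, 8814 to 10720 CPM against 27680 to 33180 CPM in male p53 KO. In male p53 Y217C, where the median difference of the 9 genes was the largest, the fibroblast sum was 17550 to 18170 CPM, the astrocyte sum 501.2 to 535.4 CPM against 339.9 to 365.7 CPM, and the oligodendrocyte lineage sum 61.6 to 64.9 CPM against 243.1 to 265.4 CPM in male p53 KO, with no overlap. The sums join genes that went in opposite directions. In male p53 Y217C, Col1a2 was at 2457 CPM against 10260 CPM in male p53 KO, while Pdgfrb was at 786.4 against 267.3 CPM. The part of cell composition in these differences was not tested. In female p53 Y217C, where Grb10 was nearly silent, the fibroblast sum was 25010 to 26930 CPM and overlapped that of female p53 KO, while the astrocyte sum, 248.3 to 284.8 CPM, and the neuronal sum, 4.73 to 5.02 CPM, were below those of that line. Within this fibroblast sum, Tbx18 was at 112.6 CPM against 52.5 CPM in female p53 KO, and Col3a1 at 1103 against 1538 CPM. The lower astrocyte sum came mostly from Gja1, which other cell types also express, at 152.8 against 221.5 CPM. Slc1a3 was at 3.14 against 18.7 CPM, while Sox9 was at 110.3 against 113.3 CPM and Aldoc at 2.575 against 1.632 CPM. Of the oligodendrocyte lineage, microglial and endothelial lists, 3 of 6, 1 of 6 and 2 of 4 genes were in the table. Their sums in female p53 Y217C were 215, 0.539 and 7.80 CPM, against 285, 0.601 and 13.9 CPM in female p53 KO.

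Male and female lines of the same genotype were then compared. In p53 KO, 7 of the 9 genes differed between the sexes, where 31.1% of all genes did, and with p53 Y217C all 9 did (68.0% of all genes), with p53 Y202C 8 (75.3%) and with p53 R172H 7 (62.0%). Meg3 and Igf2r did not pass in p53 KO. The largest differences in p53 Y217C, male minus female on the log2 scale, were -5.27 ± 0.15 for Cdkn1c (edgeR adjusted p = 1.57e-19), -5.19 ± 0.21 for Igf2 (edgeR adjusted p = 1.91e-16) and -4.72 ± 0.16 for H19 (edgeR adjusted p = 4.16e-18). Mest and Dlk1 were higher in the male p53 Y217C line, by 1.91 and 1.399 (edgeR adjusted p = 3.75e-15 and 2.20e-06). Of the 9 genes, 7 were lower in the male p53 Y217C line, in which Grb10 was at 25.3 CPM. Cdkn1c, Igf2 and H19 were already lower in male than in female p53 KO, with log2 differences of -0.61, -1.59 and -3.18. Against female p53 KO, H19 fell in female p53 Y217C and the difference in Igf2 did not pass.

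The effect of each mutation was also compared between the sexes through an interaction term. All 9 genes passed it for p53 Y217C, 8 for p53 Y202C and 7 for p53 R172H, where 54.9%, 68.0% and 58.0% of all genes passed. Among the 9 genes, Dlk1 and Mest had the largest interactions for p53 R172H, with effects in males below those in females by -4.98 ± 0.20 and -5.54 ± 0.13 (edgeR adjusted p = 6.63e-16 and 2.95e-20). That of Dlk1 was larger for p53 Y202C, at -5.57 ± 0.24 (edgeR adjusted p = 6.25e-16). Each sex was 1 culture, so a difference between the sexes cannot be told apart from a difference between these cultures.

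A wider list of 56 other imprinted genes was examined, of which 36 were in the count table. Of these, 10 rose, 16 fell and 10 did not pass in female p53 Y217C, with a median absolute log2 difference of 0.53, where 28.0% of all genes were called higher, 28.7% lower and the median over all genes was 0.28. In each comparison the shares of all genes are those given above. The other female lines had 13 rises and 14 falls (p53 Y202C) and 16 and 16 (p53 R172H), and the male lines had 14 and 17 (p53 Y217C), 13 and 16 (p53 Y202C) and 13 and 11 (p53 R172H). Dio3, Ndn, Zdbf2, Rasgrf1 and Dcn met the switch count, 5 of 36 (13.9%), against 2.87% of all genes. These genes passed the filter on low values of the deposited table partly through the lines in which they were high, so the share says nothing of the 20 listed genes that were not analyzed here.

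Several of these genes had low lines of their own. Zdbf2, a paternally expressed gene with a role in postnatal growth, was at 22.6 ± 2.54 CPM in female p53 KO and at 1.38 ± 0.324 CPM in female p53 Y217C (log2 difference -4.04, edgeR adjusted p = 1.53e-13), but it was lower still in female p53 R172H and p53 Y202C, with at most 5 and 4 reads per library. In male p53 Y217C it had at most 8 reads, against 11.8 ± 0.783 CPM in male p53 KO. Nnat, the paternally expressed proteolipid neuronatin, fell from 47.1 ± 0.407 to 3.02 ± 0.379 CPM in female p53 Y217C (-3.97, edgeR adjusted p = 8.35e-18) and was between 2.53 and 6.25 CPM in the other mutant lines. Zrsr1, a paternally expressed splicing factor gene, rose in female p53 Y217C by 1.21 (edgeR adjusted p = 5.19e-05).

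Other genes of the wider list stood high in 1 line. Rasgrf1, a Ras exchange factor expressed from the paternal allele in brain, rose in male p53 Y217C to 57.03 ± 3.50 CPM from 1.72 ± 0.157 CPM (5.04, edgeR adjusted p = 5.07e-19), as did Ppp1r9a, an actin-binding protein, to 39.6 ± 1.96 from 7.30 ± 0.409 CPM (2.44, edgeR adjusted p = 9.09e-16). Dcn, the matrix proteoglycan decorin, which is also made by fibroblasts, rose in female p53 R172H to 105 ± 10.4 CPM from 2.20 ± 0.694 CPM (5.59, edgeR adjusted p = 1.61e-17), the line with the highest fibroblast sum. Dcn rose also in male p53 Y202C, the line with the lowest fibroblast sum (0.83, edgeR adjusted p = 3.48e-04). It rose in female p53 Y202C and p53 Y217C (2.82 and 1.88), fell in male p53 Y217C (-1.58) and did not pass in male p53 R172H. Ndn, the growth suppressor necdin, rose in male p53 R172H to 27.4 ± 0.874 from 6.45 ± 0.0456 CPM (2.09, edgeR adjusted p = 2.70e-13) and was under 1 CPM in both p53 Y202C lines and in male p53 Y217C.

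Of 17 listed genes that keep, set or remove DNA methylation or act on imprints and chromatin (the maintenance list), 16 were in the table. In the female p53 Y217C line 3 rose and 7 fell, against 28.0% and 28.7% of all genes, with a median absolute log2 difference of 0.20 against 0.28 over all genes. That median was below the one over all genes in both p53 R172H lines too, at 0.35 against 0.39 in females and 0.13 against 0.19 in males, and above it in female p53 Y202C (0.41 against 0.38), male p53 Y202C (0.55 against 0.46) and male p53 Y217C (0.42 against 0.40). Zfp57, the zinc finger protein that guards methylated imprints, was at 60.0 ± 2.72 CPM against 52.5 ± 2.11 CPM in p53 KO (0.19, edgeR adjusted p = 0.0111), and Dnmt3b, a de novo DNA methyltransferase, at 2.74 ± 0.277 against 3.78 ± 0.558 CPM (-0.47, edgeR adjusted p = 0.0148). Falls and rises numbered 11 and 3 in female p53 R172H (35.3% and 34.4% of all genes) and 10 and 3 in female p53 Y202C (34.3% and 34.3%). They numbered 13 and 2 in male p53 Y202C (35.4% and 37.6% of all genes) and 11 and 1 in male p53 Y217C (35.6% and 34.9%). Male p53 R172H had 3 rises and 0 falls, with 13 not past the threshold. There, 20.2% of all genes were called higher and 20.5% lower. Dnmt1, the maintenance methyltransferase, fell in female p53 Y202C to 188 ± 8.99 from 340 ± 11.6 CPM (-0.86, edgeR adjusted p = 1.07e-09). It fell also in male p53 Y202C (-1.22), female p53 R172H (-0.70) and male p53 Y217C (-0.33), and did not pass in female p53 Y217C and male p53 R172H. Tet1, which oxidizes methylated cytosine, fell in male p53 Y202C to 1.04 ± 0.362 from 5.86 ± 0.235 CPM (-2.52, edgeR adjusted p = 8.41e-12). The falls counted above thus join genes that keep methylation, such as Dnmt1, with genes that oxidize it, such as Tet1. They do not measure a loss of the genes that keep imprints.

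Partners of the 10 genes in insulin and growth factor signaling were listed as 14 genes, of which 13 were in the table. Of the latter, 2 rose and 7 fell in female p53 Y217C, where 28.0% of all genes were called higher and 28.7% lower. Grb14, the adaptor closest to Grb10 in structure and function, rose to 35.5 ± 6.22 from 10.7 ± 2.14 CPM (1.73, edgeR adjusted p = 5.89e-10), and Irs1, the insulin receptor substrate, fell to 33.1 ± 4.56 from 71.9 ± 6.59 CPM (-1.12, edgeR adjusted p = 5.59e-09). Grb14 rose also in female p53 R172H and p53 Y202C, to 49.1 ± 2.22 and 62.4 ± 1.69 CPM (2.20 and 2.54), lines with 160 and 78.6 CPM of Grb10, so that its level did not follow that of Grb10 through the female mutant lines. The Igf2 mRNA-binding protein genes Igf2bp1 and Igf2bp3 fell in 5 of 6 comparisons each and rose in male p53 R172H, by 0.25 and 0.24 (edgeR adjusted p = 0.0339 and 0.00131). Igf2bp1 fell in male p53 Y217C from 74.7 ± 6.37 to 7.62 ± 1.25 CPM (-3.29, edgeR adjusted p = 1.83e-18) and Igf2bp3 in the same line from 48.2 ± 1.54 to 7.39 ± 0.370 CPM (-2.70, edgeR adjusted p = 7.51e-21).

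Within 1000000 bases on either side of Grb10, 4 genes were tested. Cobl, an actin nucleator gene 197925 bases from Grb10 toward higher coordinates, was at 32.0 ± 0.527 CPM in female p53 Y217C against 8.55 ± 0.558 CPM in female p53 KO, and thus rose by 1.90 ± 0.07 (edgeR adjusted p = 4.91e-16) where Grb10 was nearly silent. Cobl rose also in female p53 Y202C, male p53 R172H and male p53 Y202C, by 1.41, 1.32 and 1.99, and fell in female p53 R172H (-0.64) and male p53 Y217C (-1.03). Fignl1, a DNA repair ATPase gene 121546 bases toward lower coordinates, did not pass in female p53 Y217C (0.15, edgeR adjusted p = 0.252), at 24.1 ± 2.49 CPM against 21.7 ± 0.99 CPM. The pseudogenes Gm12599 and Gm12003 were near 1 CPM, and Gm12599 was higher in female p53 Y217C by 0.79 (edgeR adjusted p = 0.0124), a call lost without female p53 KO replicate 2. The near silence of Grb10 was thus not shared by the nearest tested genes on either side.

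Across the 8 line means of log2 CPM, the genes with a pattern most like Grb10 were Rev1 (Pearson's r = 0.976), Ccnt2 (0.969), Ccdc8 (0.968), Nvl (0.948) and Atg4b (0.943), and the first 3 were also among the first 5 over 24 libraries. Rev1, Ccnt2, Nvl and Atg4b all lie on chromosome 1, and Ccdc8 lies on chromosome 7. Whether the genes of chromosome 1 vary independently of each other was not tested. The lines of a sex share a culture, and no p is given. Without female p53 Y217C the values over 7 lines were 0.876, 0.841, 0.951, 0.805 and 0.879. Of these genes, Ccdc8 was the one that was nearly silent in female p53 Y217C, at 0.299 CPM against 10.9 CPM in female p53 KO, and the others ranged less, such as Rev1 from 12.7 to 21.1 CPM. Among the imprinted growth genes the values ran from -0.18 for Cdkn1c to 0.46 for Meg3 over 8 lines. Without female p53 Y217C, over 7 lines, they were 0.886 for Meg3, 0.853 for Cdkn1c, 0.833 for Plagl1, 0.736 for Peg3, 0.638 for Igf2, 0.615 for H19, 0.224 for Igf2r, 0.169 for Dlk1 and -0.18 for Mest. Leaving that line out raised the value for 7 of the 9 genes and lowered it for Dlk1, from 0.441, and for Mest, from 0.123. The share of all genes with values as high, or raised in the same way, was not computed. These values thus do not show that the imprinted growth genes follow Grb10 more closely than other genes do.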

How the data were processed

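RNA-seq was performed on 24 libraries of 8 mouse astrocyte lines. With STAR 2.5.1a, which the submitters' processing notes also name, the authors mapped reads to an Ensembl primary assembly, and they counted reads that mapped uniquely to 1 gene with featureCounts of Subread. The deposited values are raw counts without normalization, from which ribosomal genes and low genes had been removed. The strand of counting is not given in the sources used here. GENCODE M21 (GRCm38) gave symbols and positions for 14350 of 14427 identifiers.

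Counts were analyzed with edgeR 4.0.16 in R 4.3.3. Requiring over 1 CPM in 2 libraries left all genes in. With TMM factors, 1 quasi-likelihood fit over 24 libraries gave each line its mean, and the Benjamini-Hochberg threshold was 0.05. Comparisons were each mutation against p53 KO within a sex, males against females, and their interaction. In data simulated for female p53 Y217C against p53 KO with 13707 genes tested, 46 of 50 genes lowered 1.5-fold and 50 of 50 lowered 4-fold were recovered, with 13 false calls. The simulated lines had equal means apart from the lowered genes, which were well counted, and a fixed spread among replicates. These figures thus do not describe the test where many more genes differ, as in the data. The floor of 3 counts covers counting error only, whereas SDs and SEs come from replicates.

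The genes, lists and tests were chosen with earlier results of these data known. Named genes beyond the 10 were the 2 largest rises and falls per comparison of the wider list among genes whose higher line had 10 counts or more throughout, the largest rise and fall of the maintenance list and of the partner list, the genes beside Grb10 and the 5 with the most similar pattern. Not every gene the rule gives is described. Genes of the Dlk1-Dio3 cluster, Airn, Kcnq1ot1, Zim1, Copg2 and the genes that met the switch count were named because they lie beside, or were counted with, the 10 genes, and some of them after their values were seen. Alternatives were voomWithQualityWeights (limma 3.58.1), the DESeq2 1.42.0 test, its size factors in edgeR, other filters and thresholds, a fit to the compared lines alone, a block for the replicate number, and leaving out each replicate.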

Additional observations from a re-analysis of the deposited data

Results flagged for a closer look

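The effects of a mutation differed between the male and female lines for several imprinted growth genes, by the interaction term of edgeR's quasi-likelihood test with Benjamini-Hochberg adjustment over all genes. Values below are the log2 effect in males minus that in females, each from 3 replicates per line, and the sexes cannot be told apart from the 2 cultures. For p53 R172H, the interaction passed for H19 4.40 (edgeR adjusted p = 8.88e-16), Igf2r -0.24 (edgeR adjusted p = 0.00915), Cdkn1c 3.09 (edgeR adjusted p = 3.70e-13), Peg3 -0.96 (edgeR adjusted p = 4.39e-06), Mest -5.54 (edgeR adjusted p = 2.95e-20), Meg3 0.70 (edgeR adjusted p = 8.95e-05) and Dlk1 -4.98 (edgeR adjusted p = 6.63e-16).

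For p53 Y202C, the interaction passed for H19 1.97 (edgeR adjusted p = 5.60e-10), Igf2 3.95 (edgeR adjusted p = 6.39e-13), Igf2r 0.26 (edgeR adjusted p = 0.00458), Cdkn1c 2.87 (edgeR adjusted p = 3.18e-12), Peg3 -3.30 (edgeR adjusted p = 4.49e-15), Mest -3.22 (edgeR adjusted p = 4.75e-16), Meg3 -2.01 (edgeR adjusted p = 3.62e-12) and Dlk1 -5.57 (edgeR adjusted p = 6.25e-16). For p53 Y217C, the interaction passed for H19 -1.54 (edgeR adjusted p = 5.08e-07), Igf2 -3.60 (edgeR adjusted p = 4.62e-11), Igf2r -0.30 (edgeR adjusted p = 0.00171), Cdkn1c -4.66 (edgeR adjusted p = 4.13e-16), Peg3 -1.24 (edgeR adjusted p = 1.76e-07), Mest 1.26 (edgeR adjusted p = 9.99e-09), Plagl1 -1.26 (edgeR adjusted p = 1.11e-06), Meg3 -0.92 (edgeR adjusted p = 2.97e-06) and Dlk1 0.74 (edgeR adjusted p = 0.0184).

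The sign of the interaction was the same for every mutation in Peg3, with lower effects in males, but not in several other genes. H19 and Cdkn1c had higher effects in males for p53 R172H and p53 Y202C and lower effects in males for p53 Y217C, whereas Mest and Dlk1 went the other way. No group had enough replicates for a check of single outlying libraries.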

How the results depend on the processing

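The Grb10 differences from p53 KO stayed within 1 SD under every alternative run, from -11.49 to -11.33 in female p53 Y217C. Of 702 values of the other genes under alternatives, 690 kept their direction and their side of the threshold, 3 lost a call, 3 gained one and 6 changed sign without being called. The sign changes were in H19 for male p53 Y202C (-0.021 to 0.165 over replicates left out), Igf2 (-0.0125 to 0.0766) and Mest (-0.0251 to 0.0541) for female p53 Y217C, and Igf2r for male p53 Y217C (-0.0692 to 0.0059, and 0.0054 with genes above 5 CPM in at least 3 libraries). The cause was not tested. Of 54 pairs, 47 were called in the reported fit, 48 with voomWithQualityWeights and 34 when the absolute log2 difference also had to exceed 1. Shares of all genes called under the alternatives are not given, here or below. The counts thus show only how the calls depend on the processing and do not set these genes apart from others.

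With that limit on the difference, which removes calls by its construction, the calls among the 9 genes were 1 for male p53 R172H, 2 between the p53 KO sexes and 4 for the p53 R172H interaction. Those of the wider list were 16, 14 and 9 in female p53 R172H, Y202C and Y217C and 4, 14 and 16 in males, those of the maintenance and partner lists together 1, 2 and 2 in females and 0, 7 and 7 in males, and those beside Grb10 0 in female p53 R172H and 1 in female and male p53 Y217C. The maintenance and partner lists gave 12 calls in female p53 Y217C at an adjusted p of 0.01 and 17 in male p53 R172H with voomWithQualityWeights, against 19 and 11. Beside Grb10 in female p53 Y217C, 2 genes were called, but 4 with voomWithQualityWeights, 1 with genes above 5 CPM (also in female p53 Y202C), 1 with only the lines compared, 1 at an adjusted p of 0.01 and 1 to 2 with replicates left out, and the filter removes the pseudogenes, which were near 1 CPM.

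Replicate numbers did not pair the samples: over 84 pairs of libraries that share a number, deviations from the line means correlated at -0.0116 on average (-0.313 to 0.245), and 5 of 24 libraries were closest to one with their own number. With the replicate block, 47 of 54 pairs were called, 7 of 9 in female p53 Y217C, and 3 genes beside Grb10 in that line against 2.

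Depth was not the limit for most of these genes. Grb10, Dlk1 and Igf2 in their lowest lines rested on 15, 26 and 33 reads in the lowest library.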
